A study of Mus musculus with 23 samples.

Results

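Zbtb11 is a zinc finger protein of the BTB family that binds DNA, chiefly at gene promoters. The account here covers the Zbtb11 peaks found inside genes but away from promoters. They were taken by position alone from the 7500 consensus peaks, which are sites bound both in ChIP-seq with an antibody to Zbtb11 and in ChIP-seq of FLAG-tagged Zbtb11. A peak was counted as a gene-body peak when its window shared no base with the region from 2 kb upstream to 500 bases downstream of any annotated transcript start and when its midpoint lay in an annotated gene. This rule gave 1593 gene-body peaks, besides 4256 promoter peaks and 1651 intergenic peaks.

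All cells were mouse embryonic stem cells (ESCs) of the E14 line. ChIP-seq with the Zbtb11 antibody was performed in 4 biological replicates of *Zbtb11* WT/WT cells. FLAG-Zbtb11 was precipitated with the M2 antibody to FLAG in 3 replicates of a *Zbtb11* FLAG/FLAG line, in which both copies of the endogenous gene carry the tag and which derives from 1 clone, and in 2 control replicates of cells without a tag. For RNA-seq, a *Zbtb11* lox/lox line that carries *R26* ERt2-Cre was given 250 nM 4OHT, which induces Cre to remove a floxed exon of the gene (*Zbtb11* KO), or ethanol (EtOH control). A 4OHT control consisted of *Zbtb11* WT/WT *R26* WT cells under 250 nM 4OHT, so that both the genotype and the agent differ between the controls. Each RNA-seq group had 3 replicates after 48 h. Transcripts of the stem cell factors *Pou5f1*, *Sox2*, *Nanog* and *Esrrb* lay between 449 and 840.5 CPM (counts scaled to the same library size) in all 9 RNA-seq libraries.

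As background, transcription factors are often bound within introns and exons as well as at promoters. Such sites can be enhancers or unannotated starts, or sites without a known role, and a site inside a gene need not act on that gene. Zbtb11 is known in ESCs for its binding at promoters of nuclear genes for mitochondrial proteins, where NRF-1 and the ETS family factor NRF-2 (whose DNA-binding subunit is GABPa) also act.

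Coverage is the read coverage of a 1200-base window around a peak, as normalised between libraries by the authors. Whether input reads were subtracted from it, or a lowest value set, could not be worked out. Each library held between 611932 and 1915856 of its smallest steps of coverage in the 7500 windows. Gene-body peaks took 11 to 14.2% of these steps, and the median gene-body peak stood at 25 to 116 steps, so that single weak peaks were measured with little precision. The RNA-seq libraries held 14301457 to 23876604 counts on genes. The loss of *Zbtb11* could not be followed in these counts, because the annotation gives its locus to *Rpl24* (ENSMUSG00000022601.9), a gene for a ribosomal protein, which stood at 355 to 386 CPM in the EtOH control and 358 to 363 CPM in *Zbtb11* KO cells. Replicate 1 lay apart from replicates 2 and 3 in all RNA-seq groups, and counts of changed genes are given with and without it.

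Gene-body peaks are best seen through the DNA at their centres. The following stretches of 120 bases are from the plus strand of mm9, and CCGGAAG, the core of the GABPa motif, or its reverse complement CTTCCGG is in capitals where it lies nearest to the centre. They are the 4 strongest gene-body peaks that carry this word in their central 300 bases. The *Sema5b* stretch lies at chr16:35645782-35645901 in a window centred on a coding exon, and that of *Deptor* at chr15:54952909-54953028 in an intron. The *Cep164* stretch lies at chr9:45576579-45576698 and that of *Zfp13* at chr17:23729742-23729861, both in introns. The word lay 14 to 53 bases from the window's centre in these 4 peaks.
Sema5b: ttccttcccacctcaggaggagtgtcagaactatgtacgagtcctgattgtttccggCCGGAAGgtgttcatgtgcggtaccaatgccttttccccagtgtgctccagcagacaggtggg
Deptor: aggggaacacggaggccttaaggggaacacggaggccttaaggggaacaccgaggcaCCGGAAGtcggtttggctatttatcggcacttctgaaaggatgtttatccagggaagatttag
Cep164: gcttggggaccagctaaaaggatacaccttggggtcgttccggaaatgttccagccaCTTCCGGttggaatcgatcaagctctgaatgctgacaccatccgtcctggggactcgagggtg
Zfp13: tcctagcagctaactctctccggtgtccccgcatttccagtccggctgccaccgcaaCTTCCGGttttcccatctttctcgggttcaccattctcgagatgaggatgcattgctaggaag

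The 6-base word GGAACC, or its reverse complement GGTTCC, is in capitals in the next 4 stretches, also from the plus strand of mm9. The *Chaf1b* and *Ttbk1* peaks were among those that differed most between the ChIPs, and the *Pitpnc1* and *Ptgis* peaks were the 2 strongest of all gene-body peaks. Their stretches lie at chr16:93901609-93901728 (*Chaf1b*), chr17:46620599-46620718 (*Ttbk1*), chr11:107231065-107231184 (*Pitpnc1*) and chr2:167046861-167046980 (*Ptgis*), each in an intron. The *Pitpnc1* and *Ptgis* stretches hold the shorter GGAAC on either strand 3 and 4 times, the marked word included, and those of *Chaf1b* and *Ttbk1* 1 time each. Among the other printed stretches it occurs 3 times in *Deptor*, 2 times in *Cep164*, 1 time in *Adcy5* and 0 times in *Sema5b* and *Zfp13*.
Chaf1b: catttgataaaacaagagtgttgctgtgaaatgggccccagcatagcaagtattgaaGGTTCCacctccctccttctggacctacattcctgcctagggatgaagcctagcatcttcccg
Ttbk1: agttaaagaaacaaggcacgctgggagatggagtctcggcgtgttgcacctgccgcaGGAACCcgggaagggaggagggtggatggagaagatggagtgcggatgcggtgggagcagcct
Pitpnc1: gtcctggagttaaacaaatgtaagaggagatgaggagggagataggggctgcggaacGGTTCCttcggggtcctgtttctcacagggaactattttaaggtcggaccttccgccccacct
Ptgis: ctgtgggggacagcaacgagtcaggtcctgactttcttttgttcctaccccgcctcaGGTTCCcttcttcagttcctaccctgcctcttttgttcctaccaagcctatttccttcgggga

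The last stretch, chr16:35302963-35303082, is the centre of the *Adcy5* window, the gene-body peak with the largest difference in the opposite direction. Its window had neither word in the central 300 bases, so that no letter is in capitals.
Adcy5: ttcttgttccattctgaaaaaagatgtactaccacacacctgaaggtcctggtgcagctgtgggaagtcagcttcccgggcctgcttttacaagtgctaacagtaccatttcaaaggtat

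Most gene-body peaks lay in introns. The midpoint of 738 peaks (46.3%) was in an intron after the first and that of 589 peaks (37%) in the first intron of a transcript. A coding exon held 159 (9.98%), and an exon outside the coding sequence, either untranslated or of a noncoding transcript, held 107 (6.72%). The hosts were mostly protein-coding genes (1509 peaks), followed by long intergenic noncoding RNAs (46), other processed transcripts (34) and pseudogenes (4). For 59 peaks at least 2 annotated genes overlapped at the midpoint, and in 47 of these the hosts were on both strands.

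Gene-body peaks were far from transcript starts for the most part. The distance from a midpoint to the nearest start of any transcript had a median of 11479 bases, with quartiles of 5105 and 26677 bases and extremes of 1113 and 316734 bases. It was above 5 kb for 1204 peaks (75.6%). For 463 peaks the nearest start belonged to a gene other than a host. Within their hosts, whose median length was 85350 bases, the peaks were spread from end to end, with 312, 282, 306, 312 and 381 peaks in successive stretches of 20% of the host's length. Another consensus peak lay within 10 kb of 211 gene-body peaks (13.2%), and the median distance to the next one was 56227 bases.

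Coverage was lower at gene-body peaks than at promoter peaks in every library and close to that at intergenic peaks. The median coverage of the gene-body peaks was 55.6, 44.9, 49.0 and 44.3 in Zbtb11 replicates 1 to 4, and 44.3, 43.9 and 48.4 in FLAG-Zbtb11 replicates 1 to 3. The medians of the promoter peaks were 90.0, 93.0, 98.7 and 92.2, and 87.1, 86.3 and 90.6. All medians of promoter peaks were above all medians of gene-body peaks. The log2 ratio of the medians, gene-body over promoter, was -0.95 ± 0.12 (SD, n = 7 libraries), which is 1.93-fold lower, and it ranged from -1.06 to -0.70. The difference was thus several times the spread between libraries and had the same direction in 7 of 7 libraries.

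Against intergenic peaks, the log2 ratio was -0.07 ± 0.06 (SD, n = 7 libraries), about the size of the spread between libraries. The intergenic medians were 56.7, 49.7, 53.9 and 47.9 in the Zbtb11 libraries and 45.9, 43.9 and 48.8 in the FLAG-Zbtb11 libraries. Gene-body peaks were lower in 6 of 7 libraries, with -0.11 ± 0.05 (n = 4) in the Zbtb11 libraries and -0.02 ± 0.03 (n = 3) in the FLAG-Zbtb11 libraries.

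**Figure D1:**
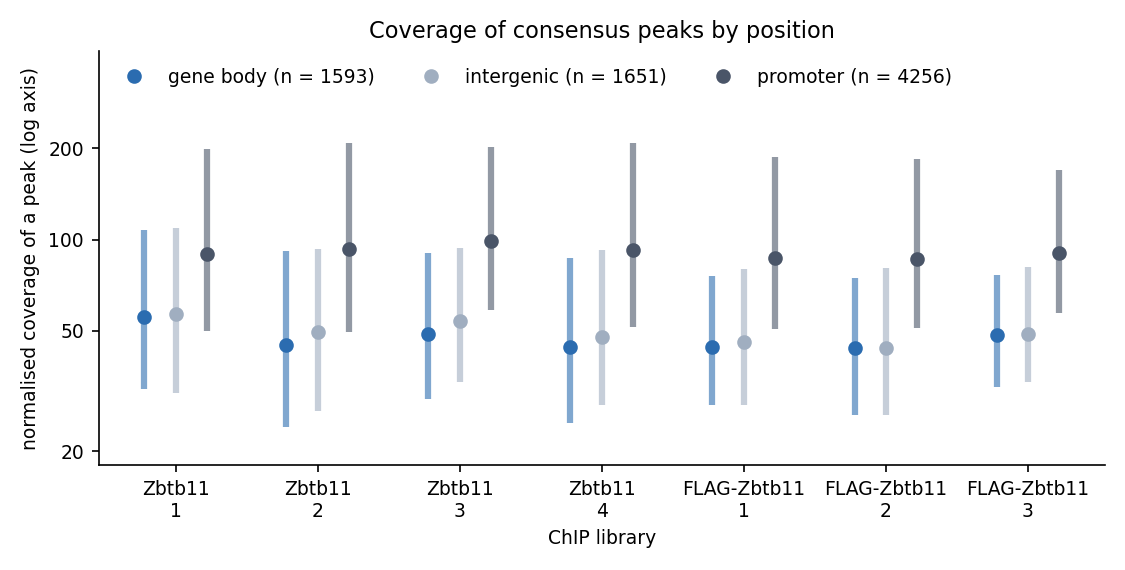
Median (points) and interquartile range (bars) of normalised coverage per peak, on a log axis, in the 4 Zbtb11 and 3 FLAG-Zbtb11 ChIP libraries for 1593 gene-body, 1651 intergenic and 4256 promoter peaks. The gene-body medians of 43.9 to 55.6 sit beside the intergenic ones and below the promoter medians of 86.3 to 98.7 in every library.

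Few gene-body peaks were strong. The upper quartile of all 7500 peaks plus 1.5 interquartile ranges, by the mean of the 4 Zbtb11 libraries, was taken as a limit and stood at a coverage of 309. Of the gene-body peaks 55 (3.45%, 95% Wilson confidence interval 2.66 to 4.47) exceeded it, against 736 promoter peaks (17.3%), 66 intergenic peaks (4.00%) and 11.4% of all peaks. The interval covers counting error only. The strongest gene-body peak ranked 105 among all peaks, and 36 of the 55 were more than 5 kb from any transcript start. Next to the rule's limit, 48 gene-body peaks within 250 bases of a promoter had a median coverage of 48.3 and 85 promoter peaks that shared at most 250 bases with one had 60.

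Coverage varied with the kind of exon or intron. The mean over the 4 Zbtb11 libraries had a median of 69.2 at peaks in exons outside the coding sequence, 49.8 in coding exons, 47.4 in the first intron and 44.9 in later introns. Relative to later introns, the log2 ratio of medians was 0.53 ± 0.12 (SD, n = 7 libraries) for exons outside the coding sequence, 0.24 ± 0.07 for coding exons and 0.12 ± 0.06 for the first intron, each above 0 in 7 of 7 libraries. The windows in coding exons had a median GC content of 54.4%, against 48.1% in later introns, and 35.8% of them held a CpG island, whose part in the coverage was not tested. Coverage was lowest for the 190 peaks more than 50 kb from a start, with a median of 36.8, and between 46.3 and 51.0 at all smaller distances.

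The 10 strongest gene-body peaks were hosted by genes of diverse roles. The first was in an intron of *Pitpnc1*, which encodes a phosphatidylinositol transfer protein (ENSMUSG00000040430.11, peak window at chr11:107230532-107231732 of mm9). Its coverage was 577, 840.0, 576 and 1130.0 in the Zbtb11 libraries and 712, 735 and 471 in the FLAG-Zbtb11 libraries. The values of the 2 ChIPs overlapped, and the peak lay 17165 bases from the nearest transcript start, that of *Gm11712*. The second was in *Ptgis*, which encodes prostacyclin synthase (ENSMUSG00000017969.7, chr2:167046408-167047608), with coverage of 507, 699, 547 and 919 against 340.4, 335 and 273. Here every Zbtb11 library lay above every FLAG-Zbtb11 library. It lay 13092 bases from the nearest start.

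The others were in the predicted genes *Gm16079* (595 ± 214, SD, n = 4 Zbtb11 libraries) and *Gm10787* (593 ± 76.0), and in *Mta3*, for a subunit of the NuRD chromatin remodelling complex (567 ± 168). They were followed by *Sema5b*, for a semaphorin (555 ± 172), *Deptor*, for an inhibitor within the mTOR complexes (544 ± 75.3), and *Cep164*, for a centriolar protein needed for cilia (537 ± 82.6). The last were *Zfp13*, for a zinc finger protein (532 ± 111), and *Trps1*, for a transcriptional repressor of the GATA type (529 ± 149). In FLAG-Zbtb11 the same peaks had means of 315 (*Gm10787*) to 521 (*Deptor*). The order within these 8 was not resolved, since neighbouring means differed by far less than their SD. Replicate 4 gave the highest of the 4 Zbtb11 values at 9 of the 10 peaks and replicate 2 at the *Deptor* peak, and FLAG-Zbtb11 replicate 3 gave the lowest FLAG value at all 10.

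**Figure D2:**
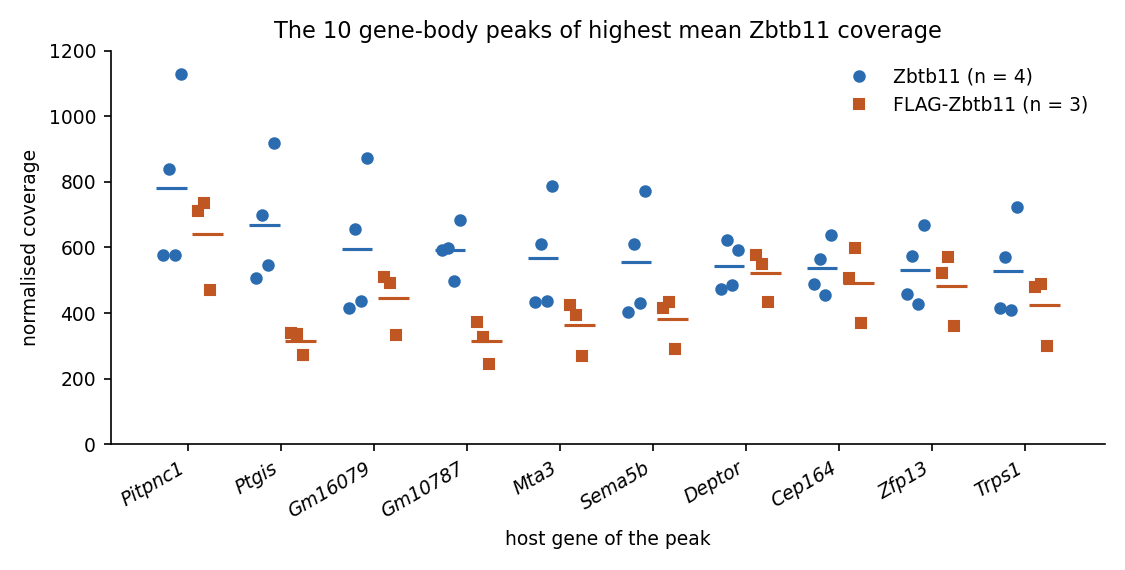
Normalised coverage of the 10 gene-body peaks with the highest mean in the Zbtb11 ChIP, 1 point per library and a bar at each mean, for the Zbtb11 antibody (circles, n = 4) and FLAG-Zbtb11 (squares, n = 3). The Zbtb11 means fall from 781 at *Pitpnc1* to 529 at *Trps1*, and the FLAG-Zbtb11 values lie wholly below the Zbtb11 values at *Ptgis*, *Gm10787* and *Mta3*.

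CpG islands were uncommon under gene-body peaks. An island was taken as 500 bases or more whose GC content reached 55% and whose CpG count reached 0.65 of that expected from the base composition. The windows of 165 gene-body peaks held one (10.4%, 95% Wilson confidence interval 8.96 to 12), against 82.2% of promoter peaks, 11.4% of intergenic peaks and 51.4% of all peaks. The median GC content of the windows was 49.0% in gene bodies and 56.9% at promoters, and the median CpG ratio was 0.274 and 0.708. The called Zbtb11 peaks were also narrower, with a median of 884 bases against 1393 at promoters and 886 between genes. Of the 93 gene-body peaks less than 2 kb from a start 29.0% had an island, and beyond 5 kb the share in each range of distance was between 6.29 and 9.51%.

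The lower coverage in gene bodies was seen both with and without an island. Among peaks with an island, the log2 ratio of medians, gene-body over promoter, was -0.73 ± 0.08 (SD, n = 7 libraries). Among peaks without one it was -0.45 ± 0.09. Both were smaller than the -0.95 of all peaks and negative in 7 of 7 libraries. Within gene bodies, peaks with an island exceeded those without by 0.38 ± 0.16 on the log2 scale, in 7 of 7 libraries but by only 0.08 in Zbtb11 replicate 1 (0.31 to 0.54 in the others).

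The GABPa core CCGGAAG was found, on either strand of the central 300 bases, in 250 gene-body peaks (15.7%, 14.0 to 17.6), in 39.4% of promoter peaks, in 16.9% of intergenic peaks and in 29.4% of all peaks. It was gathered at the centres. In the 2 bins of 100 bases next to the window's centre, 6.84 and 8.04% of gene-body peaks had a match, against 0.377 to 1.19% in the outer bins. Peaks in coding exons held it most often (32.1%). The median coverage of gene-body peaks with the word was 52.3 to 61.7 over the 4 Zbtb11 libraries and 53 to 60.1 over the 3 FLAG-Zbtb11 libraries, against 43.3 to 54.5 and 42.4 to 47.2 without it. The log2 ratio was 0.29 ± 0.07 (SD, n = 7 libraries), above 0 in 7 of 7 libraries, with 0.25 ± 0.06 in the Zbtb11 and 0.35 ± 0.04 in the FLAG-Zbtb11 libraries. At promoter peaks the same ratio was 0.60 ± 0.10, larger than at gene-body peaks in each of the 7 libraries.

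Words of other factors were rarer than CCGGAAG, each searched on both strands of the central 300 bases. Most of them are longer, and a longer word occurs less often by chance, so the shares do not rank the factors. The longer core CCGGAAGTG was itself in only 2.51% of gene-body peaks. The 10-base palindrome that NRF1 binds was in 0.251% of gene-body peaks, TCAAGGTCA (ESRRB) in 0.565%, TTCAGCACC (REST) in 1.07% and ATTTGCAT (OCT4) in 1.51%. GGGTGTGGC (KLF) was in 1.63%, the CTCF core in 2.39%, CCCCGCCCC (SP) in 2.89%, CACGTG (the E box) in 5.21% and TGAGTCA (AP-1) in 5.52%. The 10-base YY1 word was in 0 of 1593 peaks, for which the upper bound of the interval is 0.241%. Among promoter peaks, the SP word was in 11.7%, the E box in 7.71%, the AP-1 word in 2.80% and the OCT4 word in 0.329%. A match describes letters in these windows and not a site of any factor.

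The strength of gene-body peaks in the 2 ChIPs went together less closely than at promoters. Across peaks, Pearson's r between log2 mean coverage in the Zbtb11 and the FLAG-Zbtb11 ChIP was 0.759 over the 1593 gene-body peaks, 0.899 over promoter peaks and 0.781 over intergenic peaks. These values are descriptions, since all peaks come from the same 7 libraries and strong peaks, which are more frequent at promoters, carry more reads.

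Differences between the ChIPs were tested with limma over all 7500 peaks on log2(coverage + 1), and 295 gene-body peaks passed an adjusted p of 0.05. Of the gene-body peaks 238 (14.9%) were higher with the Zbtb11 antibody and 57 (3.58%) lower. Over all peaks, 16.8% were called in either direction, 13.4% higher and 3.40% lower, so that gene-body peaks were called about as often as the whole set. The split depended on the scaling. With quantile normalisation 245 were higher and 127 lower, and with each library centred on its median 211 were higher and 102 lower. Over all peaks the same scalings gave 13.2% higher and 10.8% lower, and 11.3 and 6.68%, so the shift was not confined to gene bodies. In gene bodies the higher share of the calls went from 80.7% to 65.9 and 67.4%. Lower calls numbered 26, 15 and 32 (1.63, 0.942 and 2.01%) without FLAG-Zbtb11 replicate 1, 2 or 3, where 1.63, 1.00 and 2.05% of all peaks were lower. With the replicate number as a block over replicates 1 to 3, which were taken to pair by number, 314 were higher and 102 lower, against 254 and 55 without the block. Over all peaks, 16.7% were higher and 7.07% lower with the block, and 13.7 and 3.25% without it. The ChIPs differ in antibody and in cell line, whose parts in a difference cannot be told apart.

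The largest increases with the Zbtb11 antibody were at peaks of intermediate strength. In an intron of *Chaf1b*, for a subunit of the histone chaperone CAF-1 (ENSMUSG00000022945.5, chr16:93901098-93902298), coverage was 110.0, 76.9, 105 and 105 in the Zbtb11 libraries and 7.92, 5.85 and 18 in the FLAG-Zbtb11 libraries. The groups did not overlap, and the log2 difference was 3.24 (standard error 0.39, limma adjusted p = 1.26e-05). In the first intron of *Ttbk1*, for a kinase of tau and tubulin (chr17:46620023-46621223), coverage was 147, 245, 183 and 255 against 17.4, 17.5 and 31.3. The log2 difference was 3.19 (standard error 0.26, limma adjusted p = 2.53e-07), and the antisense gene *Gm16736* overlaps this peak.

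Peaks in the noncoding *4930500J02Rik* (log2 difference 3.18, standard error 0.49), in *Prepl*, for a peptidase (3.11, 0.59), and in *Epb4.9*, for the actin-bundling protein dematin (3.08, 0.36), were also higher, with limma adjusted p of 1.48e-04, 9.43e-04 and 8.35e-06. At *Prepl*, the value in FLAG-Zbtb11 replicate 2, 1.46, was the smallest of its library. At *4930500J02Rik*, 3.17 in FLAG-Zbtb11 replicate 1 was near the smallest, 1.58, so the sizes of both differences are uncertain. All 5 of the largest increases kept their call in all 13 alternatives tried. Among the strongest gene-body peaks, those of *Ptgis* (1.04, standard error 0.25, limma adjusted p = 0.00613), *Gm10787* (0.93, adjusted p = 0.00774) and *Tbx21*, for the T-box factor T-bet (1.00, adjusted p = 0.00532), were also higher, likewise in all 13. The other 8 of the 10 strongest were not called, with log2 differences from 0.06 at *Deptor* to 0.63 at *Mta3*.

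The largest decreases were at peaks with almost no coverage in the Zbtb11 ChIP. In an intron of *Adcy5*, for an adenylyl cyclase (ENSMUSG00000022840.7, chr16:35302422-35303622), coverage was 1.11, 1.60, 3.03 and 8.87 in the Zbtb11 libraries and 68.1, 61.4 and 106 in the FLAG-Zbtb11 libraries. The FLAG-Zbtb11 values were above the median gene-body peak of their libraries. Its log2 difference was -4.33 (standard error 0.78, limma adjusted p = 6.16e-04), and it was called in all 13 alternatives. The lowest 2 of its values are the smallest values of their libraries, which 11 and 36 gene-body peaks had in Zbtb11 replicates 1 and 2, so the size of the difference is uncertain.

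Peaks in *Hpcal1*, for a neuronal calcium sensor (-3.01), in the noncoding *Gm12714* (-2.47), in *Etv6*, for a repressor of the ETS family (-2.38), and in *Plekha5* (-2.24) were lower too, with limma adjusted p of 0.0357, 0.0358, 0.0237 and 0.0285. These calls were less stable. They held in 9 of 13, 8 of 12, 10 of 13 and 10 of 13 alternatives, the adjusted p reaching 0.248 at *Hpcal1*. At *Hpcal1* the values in Zbtb11 replicates 2 and 4, 1.60 and 1.77, were the smallest of their libraries. The same holds for 1.77 at *Plekha5* in replicate 4, so the sizes of these differences are likewise uncertain.

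The word GGAACC set apart the gene-body peaks that were stronger with the Zbtb11 antibody. All 6-base words in at least 50 windows were ranked by how far peaks with the word exceeded those without it in the log2 difference between the ChIPs. On odd-numbered chromosomes (841 gene-body peaks, 1569 words) GGAACC was the first (0.67, 222 peaks). On the even-numbered chromosomes and X (752 peaks, 1472 words) it was again the first (0.54, 185 peaks). It was also the first of 1893 words in intergenic peaks (0.51) and the fifth of 2068 in promoter peaks (0.27). The chromosomes share the same 7 libraries, so they are not independent samples. GGAACC was also chosen with values of these data known, so its rank on either set of chromosomes is a description and no separate check.

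In the Zbtb11 ChIP the 407 gene-body peaks with GGAACC had median coverage of 88.9, 72.1, 73.3 and 65.6 in replicates 1 to 4, and the 1186 peaks without it 48.9, 38.5, 43.0 and 39.0. In the FLAG-Zbtb11 ChIP the medians were 50.7, 45.3 and 49.3 with the word and 42.7, 42.4 and 48.2 without. The word thus went with higher coverage in the antibody ChIP and hardly so in the FLAG ChIP. The log2 ratio was 0.82 ± 0.07 (SD, n = 4) in the Zbtb11 libraries and 0.12 ± 0.11 (n = 3) in the FLAG-Zbtb11 libraries, and the difference of 0.70 exceeded the pooled SD between libraries of 0.09. The lowest Zbtb11 value, 0.75, was above the highest FLAG-Zbtb11 value, 0.25. A gap between the ChIPs was built in by the choice of the word, which was picked by this difference in the same libraries. Its size describes the chosen word and is no separate evidence.

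The same contrast was smaller at promoter peaks, where the ratios were 0.56 ± 0.07 and 0.30 ± 0.05, and was 0.57 ± 0.06 and 0.07 ± 0.07 at intergenic peaks. CCGGAAG had no such excess in the antibody ChIP. In gene-body peaks that had only this word, the ratio over peaks with neither word was 0.27 ± 0.09 (SD, n = 4) in the Zbtb11 and 0.39 ± 0.04 (n = 3) in the FLAG-Zbtb11 libraries. In peaks that had only GGAACC it was 0.84 ± 0.10 and 0.14 ± 0.10, and in the 64 peaks with both words 0.81 ± 0.07 and 0.36 ± 0.04. Which antibody follows Zbtb11 more closely at these peaks was not tested.

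Of the 238 gene-body peaks that were higher with the Zbtb11 antibody, 144 (60.5%, 95% Wilson confidence interval 54.2 to 66.5) contained GGAACC, against 6 of the 57 lower peaks (10.5%) and 257 of the 1298 peaks not called (19.8%). CCGGAAG was in 10.5, 24.6 and 16.3% of the same sets. The order of the words was thus opposite in higher and lower peaks. Seen from the word, 35.4% of the gene-body peaks with GGAACC were called higher and 7.93% of those without, where 13.4% of all 7500 peaks were. Since GGAACC was chosen by the same difference, these shares describe the called peaks and are no separate evidence.

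The bases that followed the word also varied with the call. Counted from 1 at the G that opens GGAACC on the strand where it is read, position 7 was an A in 54.9% of the 144 higher peaks with the word and in 30.7% of the 257 such peaks not called, and position 8 an A in 41.7 and 22.2%. In the 61 gene-body peaks with the longer GGAACCAA the log2 ratio over all others was 1.43 in the Zbtb11 and 0.04 in the FLAG-Zbtb11 ChIP (means of 4 and 3 libraries). Since the added bases were read from peaks called higher, this larger contrast was built in by the choice of word. GGAACC was gathered at the peaks' centres as well, with matches in 10.3 and 11.8% of gene-body peaks in the 2 central bins of 100 bases and 3.70 to 5.15% in the outer bins. It was present in 25.5% of gene-body peaks, 30.2% of promoter peaks, 25.0% of intergenic peaks and 28.1% of all peaks.

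**Figure D3:**
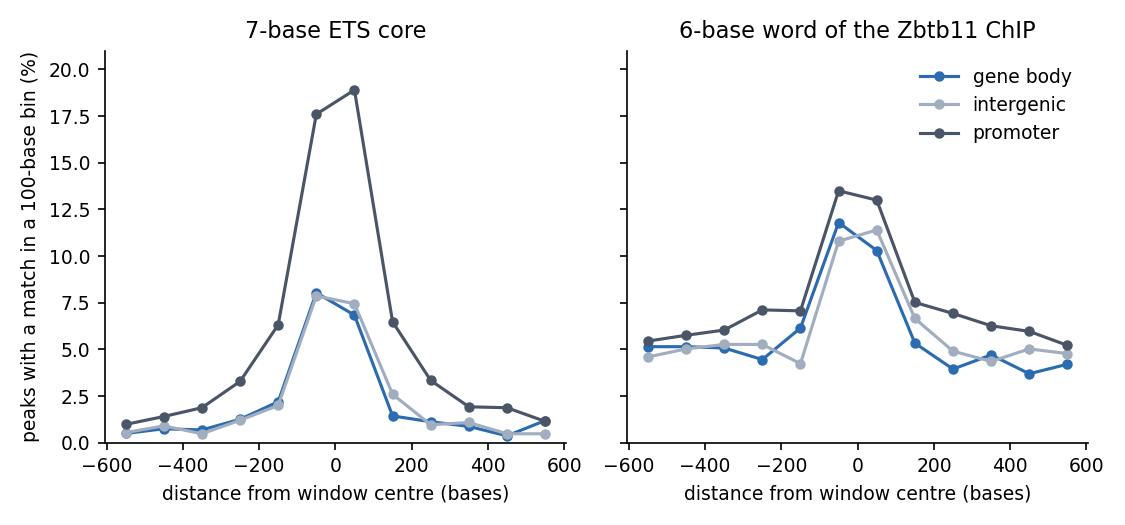
Share of peaks with a match to CCGGAAG (left) or GGAACC (right) in each bin of 100 bases, plotted by distance from the window's centre for gene-body, intergenic and promoter peaks. For CCGGAAG the central gene-body bins hold 6.84 and 8.04% against 17.6 and 18.9% at promoters, and for GGAACC the gene-body bins, 10.3 and 11.8%, come nearer to the promoter bins of 13.0 and 13.5%.

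**Figure D4:**
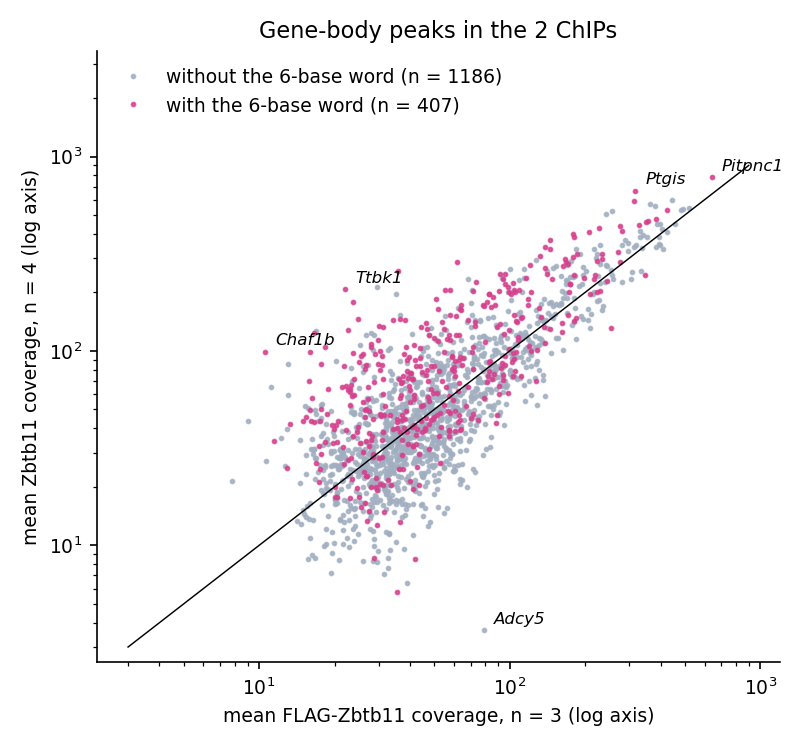
Mean coverage of the 1593 gene-body peaks in the FLAG-Zbtb11 ChIP (n = 3, x axis) and the Zbtb11 ChIP (n = 4, y axis), both on log axes, with the 407 peaks that contain GGAACC in pink, the other 1186 in grey and a line at equal coverage. Pink points lie mostly above the line, with a median of 74.2 against 47.6, while grey points straddle it (41.8 against 44.1), and *Adcy5* lies far below.

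The 1593 peaks fell in 1402 host genes, counting every gene whose body held a midpoint. Of these, 297 (21.2%) also had a consensus peak at a promoter, and 1105 did not. A single gene-body peak was found in 1206 hosts, 2 in 160, 3 in 30 and 4 in 4. The gene with the most, *Gm20388*, is annotated over 4434882 bases of chromosome 8 with only 16 exons and encloses 156 other annotated genes, and 10 of its 15 peaks had no other host.

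*Robo1*, for a receptor in axon guidance, held 6 peaks with Zbtb11 means of 15.5 to 196. Hosts of 4 peaks were *Pitpnc1* (31.3 to 781), *Igsf21*, for a synaptic adhesion protein (20.4 to 89.4), *Arid1b*, for a subunit of the BAF chromatin remodelling complex (27.2 to 58.7), and *Sh3pxd2a*, for a scaffold of podosomes (24.1 to 39.2). Most of these peaks were weak, and several peaks of a host could differ widely. None of the 4 peaks of *Arid1b* or of *Sh3pxd2a* contained GGAACC or was called between the ChIPs, whereas 3 of the 6 in *Robo1* contained the word, and 1 of the 6 was called higher and 1 lower.

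Genes of the pathways in which Zbtb11 is known to act were counted among the hosts, with no test of the difference from other genes. None of the 43 genes for complex I subunits and assembly factors (symbols that begin with *Nduf*) held a gene-body peak, and 15 (34.9%) had a promoter peak. Of the 77 genes for mitochondrial ribosome subunits 2 were hosts (*Mrps28*, 42.7, and *Mrpl33*, 59.1 mean Zbtb11 coverage), while 43 (55.8%) had a promoter peak. None of the 8 regulators of the NRF-1 and GABP pathway was a host. Among 144 genes with symbols of the cytosolic ribosome 3 were hosts, of which only *Rps10* (165) encodes a ribosomal protein, since *Rps6ka2* and *Rps6ka4* encode kinases. For comparison, 1298 of all 22380 protein-coding genes (5.80%) were hosts and 20.6% had a promoter peak. The lists were not matched for gene length, although a longer gene has more room for a peak and the median host length was 85350 bases.

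Further lists were given by the same counts. Of 374 zinc finger genes (*Zfp*) 24 were hosts (6.42%), with the strongest peaks in *Zfp13* (532), *Zfp865* (361), *Zfp217* (262) and *Zfpm1* (206). Of 38 *Zbtb* genes 2 were hosts, *Zbtb12* (40.6) and *Zbtb7c* (72.6). Among 20 genes of naive pluripotency the only host was *Nr5a2* (32.3), a nuclear receptor, and among 9 of DNA methylation it was *Tet1* (32.4), a methylcytosine dioxygenase.

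Few hosts were called in *Zbtb11* KO cells. Of the 1073 hosts expressed above the filter (over 1 CPM in 3 or more libraries), 4 were lower in *Zbtb11* KO cells than in the EtOH control and 0 higher at an adjusted p under 0.05 in edgeR (0.373%). Of all 14346 genes tested 0.899% were called, 0.843% lower. An unadjusted p under 0.05 was found for 26 hosts. DESeq2 called 7 hosts (0.652%), all lower, and 1.25% of all genes. The median log2 fold change of the hosts was -0.01, and that of all genes -0.00. In bulk RNA, fewer cells of a type and less RNA per cell cannot be told apart.

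The 4 calls included 3 of the 270 tested hosts that also had a promoter peak (1.11%) and 1 of the 803 that had none (0.125%). Among other tested genes, 119 of 4189 with a promoter peak but no gene-body peak were called (2.84%), and 6 of 9084 with neither (0.0661%). For hosts without a promoter peak, the median log2 fold change was 0.04 over the 29 tested hosts of the 50 strongest peaks and between -0.01 and -0.00 over those of the other peaks. Of the 29, 1 was called (2 without replicate 1), and of the 579 tested hosts of peaks ranked below 500, 1 was called (1 of 569 without replicate 1). Of those ranked between, 0 of 89 and 0 of 176 were called (0 of 88 and 2 of 173 without replicate 1). A host with several peaks enters each range that holds one, so *Ptgis* was counted in the first and last range and *Tbx21* in the first and in that of ranks 201 to 500, and such counts are too small to compare.

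The host with the largest change was *Zfp13*, whose intronic peak was the ninth strongest and which also had a promoter peak. Its RNA was 17.9, 17.8 and 19.7 CPM in the EtOH control, 4.89, 5.96 and 7.15 CPM in *Zbtb11* KO cells and 17.6, 22.8 and 21.5 CPM in the 4OHT control. Every *Zbtb11* KO library lay below every control library. The log2 fold change against the EtOH control was -1.62 (standard error 0.16, edgeR adjusted p = 7.66e-04). *Ptpn21*, for a protein tyrosine phosphatase, had a promoter peak and a weak intronic peak (mean Zbtb11 coverage 17.2). It fell from 20.2 ± 2.97 to 8.78 ± 2.13 CPM (SD, n = 3), by 1.21 on the log2 scale (standard error 0.20, edgeR adjusted p = 0.0210).

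*Gtpbp3*, for an enzyme that modifies mitochondrial tRNA, also had a promoter peak and fell from 24.2 ± 1.64 to 10.9 ± 0.384 CPM (SD, n = 3). The log2 fold change was -1.15 (standard error 0.09, edgeR adjusted p = 1.99e-04). Its gene-body peak (97.2) lies where *Gtpbp3* and *Plvap* overlap, and whether strand was used in counting is not given in the sources used here.

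*Ptgis* was the only host without a promoter peak that was called. It contained the second strongest gene-body peak and a further one with a mean Zbtb11 coverage of 60.8. Its RNA was 9.91, 10.2 and 11.4 CPM in the EtOH control and 5.59, 4.61 and 5.27 CPM in *Zbtb11* KO cells, and the groups did not overlap. The log2 fold change was -1.03 (standard error 0.12, edgeR adjusted p = 0.00247). In the 4OHT control it stood at 15.9, 15.4 and 15.2 CPM, 0.56 above the EtOH control on the log2 scale (edgeR adjusted p = 0.0319), and *Gtpbp3* was likewise higher there (0.45, edgeR adjusted p = 0.0255). Among the hosts of the other 9 strongest gene-body peaks only *Zfp13* was called, and *Gm16079* and *Gm10787* were below the filter. The log2 fold changes of the remaining 6 were between -0.14 at *Pitpnc1* and 0.03 at *Cep164*, apart from *Sema5b* at -0.43 (standard error 0.22, edgeR adjusted p = 1.00). With the replicate block *Sema5b* was called lower (-0.42, standard error 0.09, edgeR adjusted p = 0.00768).

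**Figure D5:**
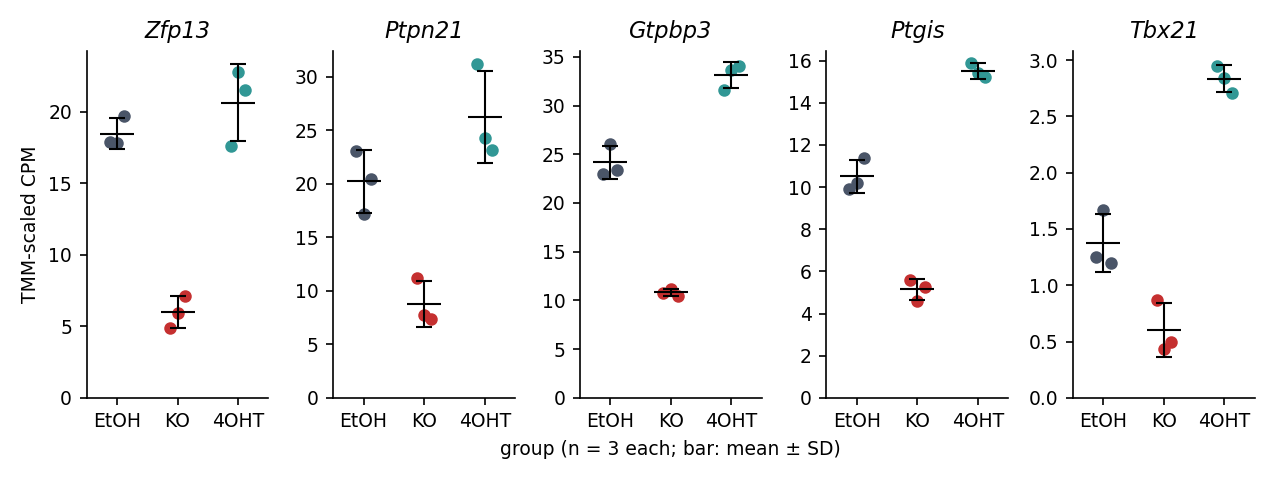
RNA of 5 host genes as CPM scaled by the trimmed mean of M values (TMM), each axis from 0, with 1 point per library and the mean ± SD (n = 3) in the EtOH control, *Zbtb11* KO and 4OHT control. *Zfp13*, *Ptpn21*, *Gtpbp3* and *Ptgis* are the 4 called hosts. *Tbx21*, which passed the filter only through control libraries, was called without replicate 1 and with the replicate block. Every *Zbtb11* KO value lies below every control value of its gene.

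These counts of called hosts changed with the replicates in the fit, while the log2 fold changes moved less. Over 10 alternatives the fold change was -1.72 to -1.51 at *Zfp13* and -1.31 to -1.09 at *Ptpn21*. It was -1.19 to -1.13 at *Gtpbp3* and -1.13 to -0.97 at *Ptgis*. Without replicate 1, 8 of 1060 hosts were lower and 1 higher in edgeR (0.849%, against 1.50% of all genes tested, 1.35% lower), 6 of them with a promoter peak. Without replicate 2 or replicate 3 the count of hosts was 0 in edgeR, with 7 and 10 hosts at an unadjusted p under 0.05, and calls over all genes were also few (0.0896 and 0.145%, with 215 and 232 genes at an unadjusted p under 0.05). With the replicate number as a block, 14 hosts were lower and 2 higher, against 2.25% of all genes (1.79% lower), and 6 of these 16 had no promoter peak. In that fit 10 of the 270 hosts with a promoter peak were called (3.70%) and 6 of the 803 without (0.747%), against 6.06% of other genes with a promoter peak and 0.583% of genes with neither.

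The hosts added without replicate 1 were *Tbx21*, *Ece2*, for an endothelin-converting enzyme, *Zfp276*, *Alkbh3*, for a demethylase in nucleic acid repair, and *Gng12*, for a G protein subunit. *Tbx21* was expressed at 1.37 ± 0.256 CPM in the EtOH control and 0.602 ± 0.237 CPM in *Zbtb11* KO cells (SD, n = 3). It had no promoter peak and held the eleventh strongest gene-body peak (527 ± 161, SD, n = 4 Zbtb11 libraries). Its log2 fold change was -1.62 without replicate 1 (edgeR adjusted p = 0.0391) and -1.21 with all replicates (adjusted p = 0.210), where the replicate block gave -1.22 (adjusted p = 0.0270). *Tbx21* passed the filter only through control libraries, which limits what these p values show. Without replicate 1 its RNA in the 4OHT control was 0.95 above the EtOH control on the log2 scale (edgeR adjusted p = 0.0221). *Ece2*, *Zfp276*, *Alkbh3* and *Gng12* were called with the replicate block as well (edgeR adjusted p of 3.69e-04, 4.25e-04, 4.44e-05 and 1.18e-06). *Alkbh3* fell by 0.61 on the log2 scale without replicate 1 (edgeR adjusted p = 0.0142), and in the 4OHT control it was also lower in the same fit (-0.40, edgeR adjusted p = 0.0301). *Gng12* was the only one to rise (0.78 without replicate 1, edgeR adjusted p = 0.00964), and its gene-body peak (117) was not called between the ChIPs.

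In the 4OHT control 58 of the 1073 hosts were called against the EtOH control in edgeR, 27 lower and 31 higher (5.41%, against 4.06% of all genes tested, 2.01% lower). Of the 803 hosts without a promoter peak 44 were called (5.48%), and of the 270 with one 14 (5.19%). Both comparisons share the EtOH control libraries. Without replicate 1 the count of hosts was 227 (95 lower and 132 higher), where 17.1% of all genes were called (8.22% lower), and with the replicate block it was 420 (180 and 240), where 33.6% were (16.5% lower). Without replicate 2 or 3 it was 0 in edgeR, with 94 and 122 hosts at an unadjusted p under 0.05, and 0.0896 and 0.165% of all genes were called. Genotype and agent cannot be told apart in this comparison.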

How the data were processed

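ChIP-seq and RNA-seq of mouse ESCs were analysed. For ChIP-seq the authors trimmed 50-base single reads, aligned them to mm9, removed duplicates and called peaks with MACS2 under IDR. The ChIP signal is coverage over the consensus peaks as deposited, which the authors normalised across libraries in DiffBind. The RNA-seq values are counts per gene as deposited by the authors, not normalised, from directional paired reads of rRNA-depleted RNA aligned with STAR and counted with HTSeq. The submitters' processing notes name cutadapt, Bowtie 1.1.2, MACS2, DiffBind, STAR, HTSeq, edgeR and mm9. The strand setting of the counting is not given in the sources used here. Between 25.3 and 31.6% of reads per RNA-seq library fell on no gene and were left out. Input libraries and called peaks of the FLAG control entered no test, and 0 gene-body peaks overlapped a FLAG control peak. All per-sample columns were mapped from the labels.

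Windows were placed with the GENCODE annotation for mm9 (2 kb upstream to 500 bases downstream of a start) and read with pysam 0.24.0 and samtools 1.23.1. Classes of peaks were compared as 1 median per library, since peaks are not replicates. Coverage was tested with limma 3.58.1 (trended prior variance, log2(coverage + 1), two-sided) over 7500 peaks, and RNA with edgeR 4.0.16 (TMM, quasi-likelihood F test, two-sided, the 3 groups together, genes over 1 CPM in 3 or more libraries) over 14346 genes, in R 4.3.3. Adjusted p values follow Benjamini and Hochberg, and calls use 0.05. Medians, shares and intervals were computed with pandas 2.3.3, numpy 2.4.6 and scipy 1.17.1 under Python 3.11.15. DESeq2 1.42.0, other filters, scalings, motif windows, island criteria, left-out replicates and the replicate number as a block were alternatives. Each test was tried on simulated data. Intervals and steps cover counting error only.

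Replicate numbers were checked as a pairing. After removal of group means, same-numbered libraries had correlations of 0.119 to 0.469 in ChIP-seq and 0.430 to 0.820 in RNA-seq. Those with different numbers had -0.317 to 0.147 and -0.753 to 0.526, so the ranges overlap. Zbtb11 replicate 2 correlated at 0.147 with FLAG-Zbtb11 replicate 1 and at 0.119 with replicate 2. EtOH control replicate 2 correlated at 0.526 with 4OHT control replicate 3 and at 0.43 with replicate 2. The numbers were still taken to pair the libraries. The labels give these numbers but do not say that they pair libraries. The correlations do not settle it either, which limits the fits that use the pairing.

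The peaks, gene lists and tests were chosen with earlier results of these data known, and GGAACC after the values were seen. The text names the 10 strongest gene-body peaks, the 5 strongest over 5 kb from a start, the 5 largest called differences between the ChIPs in each direction, the 3 strongest with CCGGAAG, the hosts of these, called hosts, hosts of 3 or more peaks up to 8, and up to 4 members of each list. *Agap1* and *Atp5o*, with 3 peaks each, are given within the count of hosts. *Atp5o* is annotated over a long stretch, chr16:91684643-91931932. Its 3 peaks, with Zbtb11 means of 34.5, 99.1 and 298, are also those of *Itsn1*. *Zfp13* as a further printed CCGGAAG peak, *Tbx21* and the hosts called without replicate 1 were added after their values were seen.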

Additional observations from a re-analysis of the deposited data

Results flagged for a closer look

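Among 39 groups of 4 Zbtb11 ChIP libraries that were examined, 3 held a library far from the other 3, where chance alone gives about 1 in 20. The log2 ratio of median coverage, gene-body over promoter peaks, was -0.70 in Zbtb11 replicate 1 and -1.06, -1.05 and -1.01 in the others. Replicate 1 also had the largest share of its coverage steps in gene-body peaks (14.2%, against 11 to 12.8% in the other Zbtb11 libraries) and the smallest excess of peaks with a CpG island over those without (0.08 on the log2 scale). Without it, the mean ratio over libraries was -0.99. At the *Chaf1b* peak, coverage was 76.9 in Zbtb11 replicate 2 and 105 to 110.0 in the others, all above the highest FLAG-Zbtb11 value of 18. At the *Hpcal1* peak, coverage was 20 in Zbtb11 replicate 3 and 1.60 to 2.22 in the others, and replicate 3 is the Zbtb11 library with the most coverage steps (1562514). The causes of these values were not tested.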

How the results depend on the processing

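Among the values that answer a comparison, 87 recomputed under an alternative stayed within the spread between libraries or within 1.5 times the count, 27 did not, and none reversed. The log2 ratio of gene-body over promoter peaks was -1.09 as a difference of mean log2 coverage. The ratio for CCGGAAG fell to 0.16 with the shorter CGGAAG, and the share of peaks with CCGGAAG was 22.6% in the whole window. With looser island criteria (200 bases, 50% GC, ratio 0.6) the ratio for islands was 0.11 and the share 38.2%. For GGAACC, whose alternatives were all chosen after the data were seen, the difference between the ChIPs was 1.39 with GGAACCAA, 0.38 in the whole window and 0.59 on even-numbered chromosomes and X.

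With the replicate number as a block, 16 hosts were called in *Zbtb11* KO cells (15 without replicate 1), 6 hosts without a promoter peak (5 without replicate 1) and 420 hosts in the 4OHT control (338 without replicate 1). DESeq2 called 7 hosts in *Zbtb11* KO cells and 122 in the 4OHT control, where it called 1.25 and 8.27% of all genes. The last count was 37 with a filter of 10 counts in total (2.03% of all genes) and 16 with only the groups compared in the fit (1.22%).

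With each library left out, the log2 ratios were -0.99 to -0.93 against promoter peaks, -0.08 to -0.06 against intergenic peaks, 0.28 to 0.31 for CCGGAAG, 0.36 to 0.43 for islands and 0.65 to 0.76 for GGAACC between the ChIPs. Gene-body peaks called between the ChIPs numbered 198 to 309, hosts called in *Zbtb11* KO cells 0 to 9, those without a promoter peak 0 to 3 and hosts called in the 4OHT control 0 to 227. The results for single peaks and genes were tallied with the counts of higher and of lower gene-body peaks between the ChIPs. Of these, 642 stayed the same, 29 lost their call, 22 gained it and 6 moved. The 6 were counts of lower peaks, which went from 57 to between 15 and 127. The cause of each change was not tested.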
